A study of Homo sapiens with 19 samples.

Results

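RNA-seq of H1-*EED*-/-/*EED*-OE human embryonic stem cells (hESCs) was compared between late days (20, 24 and 28) and early days (8, 12 and 16) after withdrawal of doxycycline (DOX). The comparison holds 3 libraries in each arm, which are 6 of the 19 samples of the series, and the arms were set by the day given in the labels. H1 is an established hESC line. In H1-*EED*-/-/*EED*-OE cells the endogenous *EED* gene was deleted and an *EED* transgene, carried by a lentivirus and switched on by DOX, kept PRC2 active during passaging. All 6 libraries share both alterations and were grown without DOX in medium for undifferentiated hESCs. A single library with DOX (+DOX) gives the state with the transgene kept on. Its treatment label gives no day and its title also carries a mark for day 28, so it need not date from the start of withdrawal. In addition, 2 libraries each of WT H1 and of *EED*-/- H1, in which *EED* was deleted without a transgene, serve as the constitutive counterpart. The line came from picked and expanded colonies, and the labels give no clone or culture number for the days. Each day is therefore 1 library, the days stand in for replicates, and the spread within an arm contains the change from day to day as well as technical error.

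Polycomb repressive complex 2 (PRC2) places the mark H3K27me3, tri-methylation of a single lysine of histone H3, and keeps developmental genes silent. EED is its subunit that binds the mark and stimulates the catalytic subunits EZH1 and EZH2. Human ESCs in the primed state rest on a network around OCT4, SOX2 and NANOG, and many genes for germ-layer identity, the *HOX* clusters among them, carry PRC2 marks in these cells.

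The deposited values were TPM (a transcript's share of the library, scaled for gene length), and differences are given as late minus early means of log2(TPM + 1). A limma fit covered the 17099 genes that reached 1 TPM in 2 or more of the 6 libraries, and a gene was called where its adjusted p (Benjamini-Hochberg) was 5% or less and its fold 2 or more. Between 15234 and 16223 genes had a TPM of at least 1 in each of these libraries, and the 10 genes with the highest TPM took between 6.53% and 8.64% of the total. *EED* itself stood at 109 TPM with DOX, at 18.3, 17.5 and 13.7 TPM on days 8, 12 and 16 and at 12.6, 21.6 and 31.6 TPM on days 20, 24 and 28, against 17.3 and 22 TPM in WT H1 and 14.2 and 22.4 TPM in *EED*-/- H1. The TPM of *EED* was thus lower in every library without DOX than with it. It does not check the knockout, since transcripts of the targeted gene were still counted in *EED*-/- H1. Across the tested genes, Pearson's r of log2(TPM + 1) lay between 0.9438 and 0.9718 for pairs of early days. It was 0.9418 for days 24 and 28, 0.8995 for days 20 and 24 and 0.8699 for days 20 and 28, while days 16 and 20 had r = 0.9299. The day 20 library therefore lay nearer to day 16 than to either later day. These correlations are descriptions across genes, which are not independent replicates.

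Late days were higher than early days for 851 of the 17099 genes (4.98%) and lower for 507 (2.97%). The groups did not overlap, with every late library above every early library, for 3403 genes (19.9%), and with every late library below for 2716 (15.9%). The median log2 difference was 2.12 among the genes called higher and −1.74 among those called lower, against 0.06 over all tested genes. The calls depended strongly on single libraries. With day 8, 12, 16, 20, 24 or 28 left out in turn, 161, 143, 322, 2560, 256 and 460 genes were called higher and 34, 25, 170, 1529, 62 and 232 lower. Without day 20, 848 of the 851 higher genes and 504 of the 507 lower genes were still called.

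**Figure D1:**
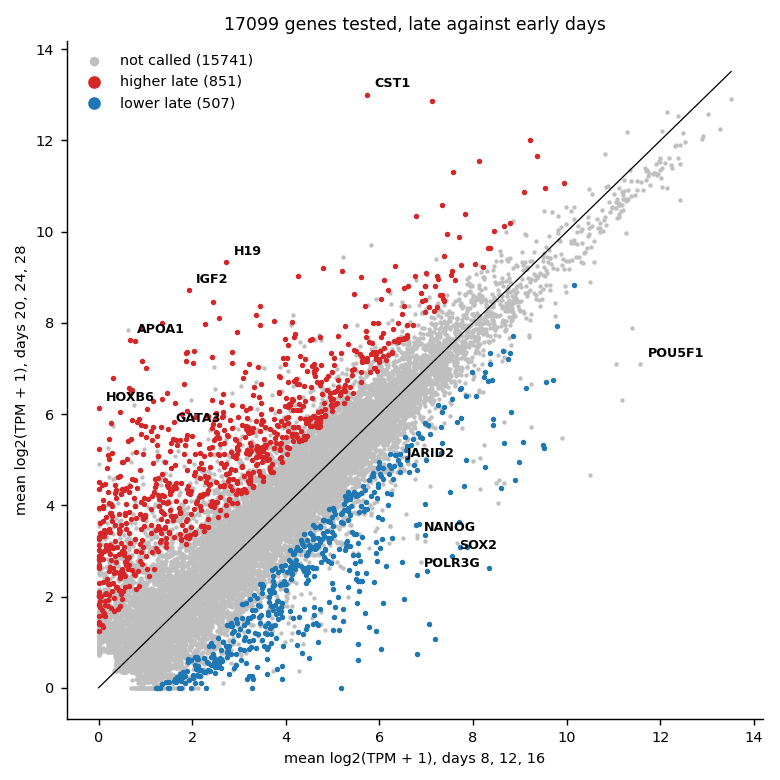
Mean log2(TPM + 1) of each of 17099 genes over days 20, 24 and 28 (vertical axis) against its mean over days 8, 12 and 16 (horizontal axis). The line marks equal means. Red points are the 851 genes called higher late, blue points the 507 called lower late, and grey points were not called. *POU5F1* and *NANOG* lie far below the line but are grey, since neither passed.

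The genes called were chosen by a difference across days 16 and 20, so the steps between days are given for them as a description. The largest step between neighbouring days was that from day 16 to day 20 for 637 of the 851 higher genes and for 361 of the 507 lower genes, and the step from day 20 to day 24 came next with 161 and 104 genes. The median step from day 16 to day 20 was 1.52 on the log2 scale among the higher genes and −1.19 among the lower genes. That step enters the difference directly, and over all genes the day 20 library was closer to day 16 than to day 24. Levels moved the same way on every step for 128 higher and 80 lower genes. Of the higher genes, 130 had their highest late TPM on day 20, 298 on day 24 and 423 on day 28. From below 1 TPM on every early day came 153 of the higher genes, and 82 of the lower genes were below 1 TPM on every late day. Relative to the single +DOX library, the early mean lay within 1 log2 unit for 696 of the higher genes and was already at least 1 unit above it for 144. When day was used as a number instead of 2 arms, 2073 genes were higher with time (12.1%) and 1233 lower (7.21%), counting genes with a fitted change of at least 1 log2 unit over the 20 days between day 8 and day 28. Protein-coding genes made up 93.5% of the higher and 83.2% of the lower genes (85.7% of all tested), and long non-coding RNAs 5.88% and 15.2% (12.6% of all tested).

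Of 25 pluripotency factors tested, 10 fell on late days (2.97% of all tested genes), and several more were low on days 24 and 28 while day 20 lay between the arms. Of the core markers that define hESCs, the +DOX library held *POU5F1* at 2916 TPM (WT H1 2531 and 2428 TPM), *SOX2* at 131 TPM (WT H1 165 and 219 TPM) and *NANOG* at 54.1 TPM (WT H1 140.4 and 97.5 TPM), so that *NANOG* and *SOX2* were lower there than in either WT library. All 3 were present on every early day. On day 20 *SOX2* was low while the other two were still present, and on days 24 and 28 all 3 were below their early values, so the labelled cell type does not describe days 24 and 28 and describes day 20 only in part. *SOX2*, a core factor that is also used by neural progenitors (chr3:181711925-181714436, plus strand, GRCh38, GENCODE annotation), stood at 417, 165 and 94.3 TPM on days 8, 12 and 16 and at 2.48, 2.1 and 35.9 TPM on days 20, 24 and 28. The groups did not overlap, and the log2 difference was −4.67 ± 0.97 (SE), adjusted p = 0.0317. Its level had already declined across the early days, and it was higher on day 28 than on the other late days. OCT4 (*POU5F1*, chr6:31164337-31180731, minus strand), the POU factor at the centre of the network, stood at 2422, 3468 and 3356 TPM and then at 1579.8, 46.2 and 33.6 TPM. Day 20 was below each early day but far above days 24 and 28, and the difference of −4.47 ± 1.30 (SE), adjusted p = 0.0728 did not pass. *NANOG* (chr12:7787794-7799146, plus strand), the homeobox partner of OCT4 and SOX2, stood at 43.3, 167 and 184 TPM and 42.4, 6.77 and 1.71 TPM, with day 20 only slightly below day 8, and its difference of −3.52 ± 0.99 (SE), adjusted p = 0.0682 did not pass either. Without day 20 both were called, with log2 differences of −6.24 (adjusted p = 2.71e-05) for *POU5F1* and −4.60 (adjusted p = 0.00295) for *NANOG*. In bulk RNA, fewer cells with a transcript and less transcript in each cell cannot be told apart.

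The clearest falls among the other pluripotency genes were already present on day 20. *POLR3G*, an RNA polymerase III subunit enriched in undifferentiated cells, went from 96.5, 133 and 105 TPM to 11, 2.5 and 3.15 TPM (log2 difference −4.32 ± 0.46 (SE), adjusted p = 0.00424). *USP44*, a deubiquitinase expressed in ESCs, went from 49.5, 42.3 and 19 TPM to 1.86, 0.96 and 1.44 TPM (log2 difference −3.88 ± 0.40 (SE), adjusted p = 0.00387). The forkhead factor *FOXD3* went from 13.8, 21 and 7.31 TPM to 0.39, 0.13 and 0.5 TPM (log2 difference −3.39 ± 0.42 (SE), adjusted p = 0.0066). *POLR3G*, *USP44* and *FOXD3* kept their calls whichever day was left out. *PRDM14*, *UTF1*, *DPPA4*, *DNMT3B*, *TERT* and *TDGF1* also fell, by log2 differences between −3.68 (*DPPA4*) and −2.75 (*TERT*). Members that did not pass included *SALL4* (−0.34), *LIN28A* (−1.07) and *ZFP42* (−1.34). The NODAL target genes *LEFTY1* and *LEFTY2*, *NODAL* itself and *GDF3* followed another course. *NODAL* stood at 8.88 TPM with DOX, at 1.85, 85 and 276 TPM on the early days and at 50.3, 5.4 and 57 TPM on the late days, so that it was highest on day 16 and the groups overlapped. The number of pluripotency factors called lower was 3, 3, 7, 18, 5 and 9 with day 8, 12, 16, 20, 24 or 28 left out, and 17 of 25 were lower on late days without overlap between the arms, against 15.9% of all tested genes.

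**Figure D2:**
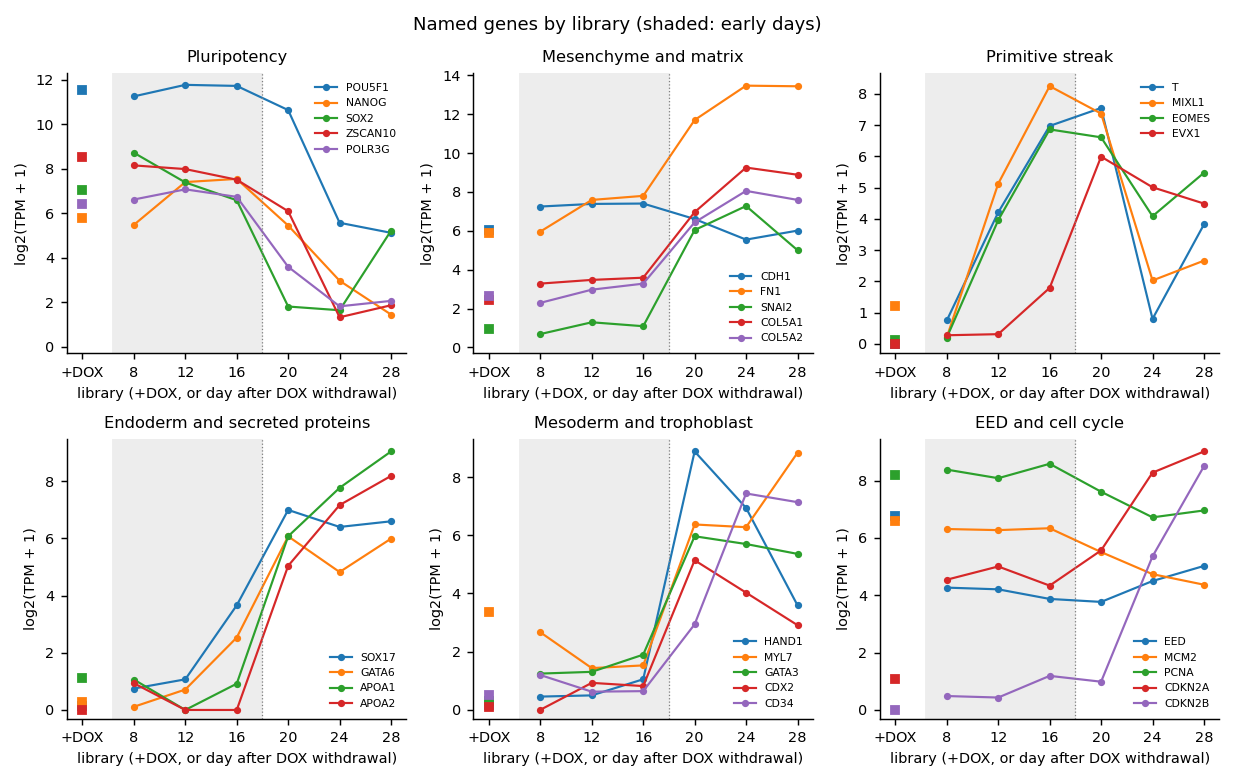
Levels, log2(TPM + 1), of named genes in the +DOX library (squares) and on each day after DOX withdrawal (circles), 1 library a point with no error bar. Early days are shaded and the dotted line marks the division of the arms. *POU5F1* fell from 1579.8 TPM on day 20 to 46.2 TPM on day 24, whereas *T*, *MIXL1* and *EOMES* peaked on days 16 and 20, on both sides of the division.

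Among the genes called, the 8 largest falls were in 6 long non-coding RNAs and 2 protein-coding genes. *RP11-386G11.10* (chr12:49127782-49188484, plus strand) stood at 595 TPM with DOX, at 137, 147 and 151 TPM on the early days and at 8.19, 0 and 0 TPM on the late days, with a log2 difference of −6.12 ± 0.80 (SE), adjusted p = 0.00818. *RP11-297M9.1* stood at 193, 159.9 and 44 TPM and 3.57, 0 and 0 TPM (−6.08 ± 0.75 (SE), adjusted p = 0.0066). *RP11-1144P22.1* stood at 313, 358 and 299 TPM and 86.7, 0.37 and 0.92 TPM (−5.72 ± 1.41 (SE), adjusted p = 0.049), so that most of its fall came after day 20. All 3 were listed at or below 1 TPM on days 24 and 28.

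*FOXD3-AS1*, annotated antisense to *FOXD3*, stood at 147, 176 and 89.5 TPM on the early days and 3.58, 1.15 and 0.85 TPM on the late days (−5.66 ± 0.41 (SE), adjusted p = 0.00142). The library kit does not mark strand, so reads of *FOXD3-AS1* and of any transcript overlapping it on the other strand cannot be told apart. *RP11-568A7.4* (−5.17) and *LINC01194* (−4.94) were listed at 0 on days 24 and 28. *HES3*, a basic helix-loop-helix repressor of the HES family, stood at 76, 40.6 and 13.5 TPM on the early days and was listed at 0 on every late day (adjusted p = 0.00461), and a fold is not given for it. *ZSCAN10*, a zinc-finger factor of pluripotent cells, stood at 281, 251 and 179.8 TPM and 66.7, 1.49 and 2.62 TPM (−4.79 ± 1.11 (SE), adjusted p = 0.0433), and its call was lost when any day other than day 20 was left out. *RP11-1144P22.1* behaved in the same way, *RP11-386G11.10* lost its call without day 8 or 12 and *RP11-568A7.4* without day 12, and the others of the 8 kept theirs.

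Among the genes called, the 8 largest rises were in secreted or extracellular proteins, a muscle stress gene and an imprinted RNA. *CST1*, a secreted cystatin that inhibits cysteine proteases (chr20:23747562-23751268, minus strand), stood at 34.4, 41.2 and 101 TPM on days 8, 12 and 16 and at 4915, 6053 and 18692 TPM on days 20, 24 and 28. All late libraries were far above all early ones, and the log2 difference was 7.27 ± 0.58 (SE), adjusted p = 0.0017. *CST4*, a neighbouring cystatin gene, stood at 0.52, 1.25 and 0.45 TPM and 121, 126 and 465 TPM (6.82 ± 0.53 (SE), adjusted p = 0.00159). The cystatins of this cluster are close paralogs, so the division of reads between *CST1* and *CST4* is uncertain. *CRHBP*, the binding protein of corticotropin-releasing hormone, stood at 0.37, 0.57 and 2.13 TPM and 221, 573 and 104 TPM (6.97 ± 0.61 (SE), adjusted p = 0.00232).

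*APOA1* and *APOA2*, the main apolipoproteins of high-density lipoprotein, both climbed from day 20 to day 28. *APOA1* (chr11:116835751-116837622, minus strand) stood at 1.09, 0 and 0.89 TPM and 66.3, 217 and 524 TPM (6.96 ± 0.70 (SE), adjusted p = 0.00382), and *APOA2* at 0.91, 0 and 0 TPM and 31.9, 142 and 289 TPM (6.48 ± 0.74 (SE), adjusted p = 0.00519). *CST1*, *CST4*, *CRHBP*, *APOA1* and *APOA2* kept their calls whichever day was left out. *ANKRD1*, an ankyrin-repeat gene of muscle that is also a target of YAP, stood at 1.62, 1.07 and 2.13 TPM and 52.2, 683 and 461 TPM (6.64 ± 0.86 (SE), adjusted p = 0.00788), and lost its call without day 8 or day 12.

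*IGF2* and *H19*, neighbouring imprinted genes that encode a fetal growth factor and a long non-coding RNA, rose later. *IGF2* (chr11:2129112-2158391, minus strand) stood at 5.64, 2.56 and 1.36 TPM on the early days and 18.2, 2718 and 1446 TPM on the late days (6.79 ± 1.67 (SE), adjusted p = 0.0488). *H19* (chr11:1995166-2004552, minus strand) stood at 4.9, 8.29 and 4.31 TPM and 52.2, 4498 and 1121 TPM (6.61 ± 1.39 (SE), adjusted p = 0.0329). In both genes day 20 was low among the late days, and both calls were lost when any day other than day 20 was left out. The *EED*-/- H1 libraries stood apart from each other for *H19*, at 488 and 0.27 TPM, while *IGF2* stood at 368 and 539.8 TPM in them. Reads of *IGF2* may be shared with the overlapping *INS-IGF2* readthrough transcript.

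*HOX* genes, the clustered homeobox factors that set position along the body axis, rose in 26 of 37 tested (4.98% of all tested genes), and 34 did not overlap between the arms (19.9% of all tested genes did not overlap in that direction). Their summed TPM was 1.2 with DOX, 20.7, 48.1 and 59.7 on days 8, 12 and 16, and 758.7, 810.3 and 579.0 on days 20, 24 and 28. The median log2 difference was 2.29, against 0.06 over all tested genes. The number called was 11, 11, 14, 32, 13 and 20 with day 8, 12, 16, 20, 24 or 28 left out. By cluster, 5 of 10 *HOXA*, 8 of 10 *HOXB*, 6 of 8 *HOXC* and 7 of 9 *HOXD* genes rose.

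*HOXB6* had the largest difference in the list. It was listed at 0 on all 3 early days and stood at 106, 71.6 and 43.2 TPM on days 20, 24 and 28 (adjusted p = 0.00142), against 0.42 TPM with DOX. *HOXB8* stood at 0, 0.62 and 0.58 TPM and 74.5, 90.3 and 40.0 TPM (log2 difference 5.58 ± 0.38 (SE), adjusted p = 0.00142). *HOXA10* stood at 0, 0 and 0.57 TPM and 49.8, 43.1 and 37 TPM (log2 difference 5.24 ± 0.32 (SE), adjusted p = 0.00142), and *HOXA9* at 0, 1.17 and 1 TPM and 55.8, 65 and 53.4 TPM (log2 difference 5.17 ± 0.36 (SE), adjusted p = 0.00142). All 4 were at their late level on day 20 and kept their calls whichever day was left out. Within clusters the late days differed. The summed *HOXB* TPM was 433.1 on day 20, 411.7 on day 24 and 225.7 on day 28, whereas the *HOXC* sum was 35.7, 108.8 and 96.2 and the *HOXD* sum 64.0, 70.0 and 104.0. The anterior genes *HOXA2* and *HOXB1* did not pass. *HOXB1* stood at 0.79, 3.61 and 3.52 TPM on the early days and 4.87, 0 and 0 TPM on the late days, with its highest value on day 20. Transcripts of neighbouring *HOX* genes overlap, so the division of reads among them is uncertain.

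**Figure D3:**
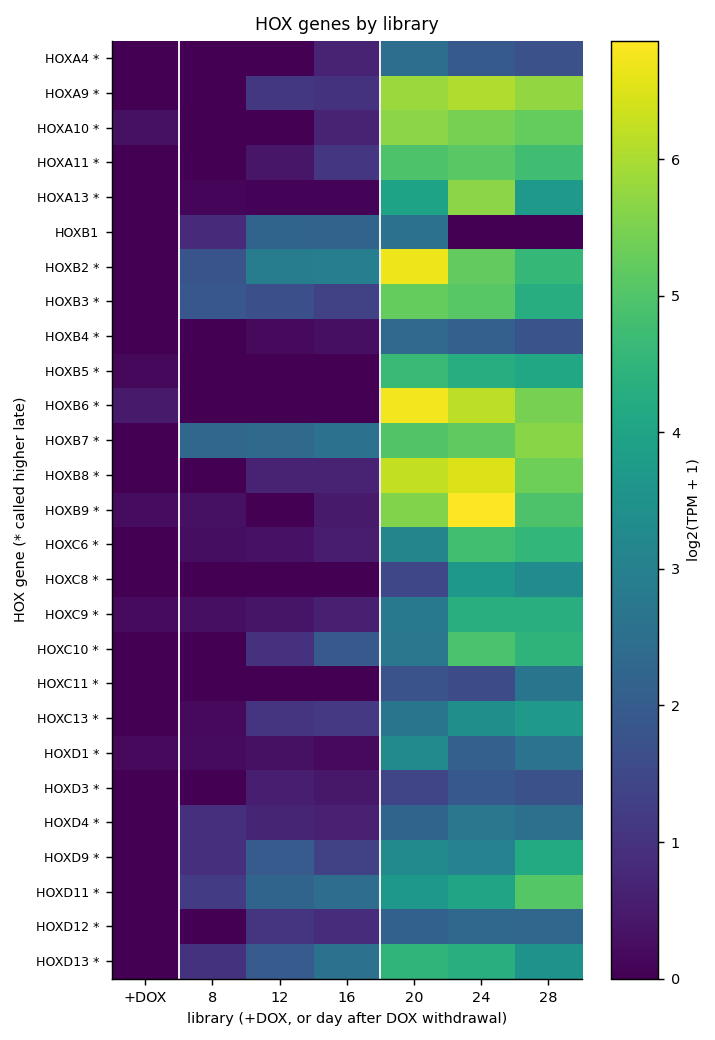
Levels of the 26 *HOX* genes called higher late and of *HOXB1*, log2(TPM + 1) as colour, in the +DOX library and on each day after DOX withdrawal. White lines divide +DOX, early and late days, and asterisks mark the 26 genes called higher late. Rows such as *HOXB6* and *HOXA10* are dark up to day 16 and bright from day 20 on, while *HOXB1* is dark again on days 24 and 28.

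To show what the regulatory sequence of responding genes looks like, the promoters of 2 rising homeobox and GATA factor genes, 1 rising apolipoprotein gene and 1 falling pluripotency gene are printed. Each window runs from 250 bases before to 50 bases after the annotated start (RefSeq, GRCh38.p14), 5′ to 3′ on the gene's strand, with every CG dinucleotide in capitals. *HOXA10* (chr7:27179812-27180111, minus strand) held 21 CG, *GATA3* (chr10:8045083-8045382, plus strand) 16, *APOA2* (chr1:161223579-161223878, minus strand) 1 and *FOXD3* (chr1:63322317-63322616, plus strand) 29.
HOXA10: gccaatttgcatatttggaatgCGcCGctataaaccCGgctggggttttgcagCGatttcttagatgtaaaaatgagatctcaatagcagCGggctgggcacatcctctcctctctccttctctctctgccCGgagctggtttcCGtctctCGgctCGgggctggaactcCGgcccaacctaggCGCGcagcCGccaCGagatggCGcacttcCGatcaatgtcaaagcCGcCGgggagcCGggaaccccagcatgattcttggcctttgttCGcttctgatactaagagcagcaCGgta
GATA3: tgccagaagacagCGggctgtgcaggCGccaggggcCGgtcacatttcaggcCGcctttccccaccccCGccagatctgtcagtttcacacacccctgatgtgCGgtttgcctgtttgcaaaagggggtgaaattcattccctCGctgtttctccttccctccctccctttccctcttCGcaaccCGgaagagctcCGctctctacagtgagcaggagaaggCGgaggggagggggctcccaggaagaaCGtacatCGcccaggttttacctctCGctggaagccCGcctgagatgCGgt
APOA2: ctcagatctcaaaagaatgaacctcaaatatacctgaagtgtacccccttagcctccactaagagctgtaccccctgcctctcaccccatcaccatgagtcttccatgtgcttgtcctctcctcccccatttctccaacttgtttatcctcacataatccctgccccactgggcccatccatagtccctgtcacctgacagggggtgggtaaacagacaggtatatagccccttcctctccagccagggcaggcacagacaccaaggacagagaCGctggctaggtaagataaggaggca
FOXD3: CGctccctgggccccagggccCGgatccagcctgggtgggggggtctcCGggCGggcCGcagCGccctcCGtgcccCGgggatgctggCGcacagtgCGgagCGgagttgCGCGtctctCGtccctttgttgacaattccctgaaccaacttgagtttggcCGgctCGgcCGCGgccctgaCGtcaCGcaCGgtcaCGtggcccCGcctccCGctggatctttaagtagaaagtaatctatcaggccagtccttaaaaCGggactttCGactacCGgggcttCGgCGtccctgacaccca
Among 27305 promoter windows of this length, 60.5% held fewer CG than *HOXA10*, 52.6% fewer than *GATA3*, 4.16% fewer than *APOA2* and 76% fewer than *FOXD3*. A promoter was found for 67.4% of the tested genes, 68.9% of those higher and 60.4% of those lower, which is under 80%, so a comparison of promoters between the sets is void.

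Of 15 mesenchymal genes tested, 9 rose, against 4.98% of all tested genes, and *TWIST2* (−0.80) and *THY1* (−0.33) had differences below 0 that did not pass. *FN1*, fibronectin, stood at 61.3, 192 and 222 TPM and 3329, 11341 and 11092 TPM (log2 difference 5.75 ± 0.62 (SE), adjusted p = 0.00443), and *SNAI2*, a repressor of epithelial genes, at 0.61, 1.45 and 1.13 TPM and 64.7, 154 and 31.1 TPM (5.08 ± 0.54 (SE), adjusted p = 0.00432). *TWIST1*, *ZEB1*, *ZEB2*, *VIM*, *CDH2*, *CDH11* and *PRRX1* also rose, with *VIM*, the intermediate filament vimentin, between 115 TPM (day 16) and 289.8 TPM (day 8) early and at 633, 5805 and 4533 TPM late. *LUM*, *DCN* and *POSTN*, matrix proteins of fibroblasts, did not pass. *LUM*, lumican, stood at 0.87, 0 and 0 TPM and 0.54, 277 and 361 TPM, so that day 20 was still at the early level. The number of mesenchymal genes called was 4, 4, 6, 12, 6 and 8 with day 8, 12, 16, 20, 24 or 28 left out.

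Among collagens and basement membrane genes 11 of 18 rose (4.98% of all tested genes), and 16 of 18 were higher late without overlap between the arms (19.9% of all tested genes). *COL5A1* stood at 8.74, 10.1 and 11 TPM and 124, 609.6 and 472 TPM (4.92 ± 0.55 (SE), adjusted p = 0.00497), and *COL5A2* at 3.9, 6.84 and 8.72 TPM and 85.5, 265 and 192 TPM (4.51 ± 0.45 (SE), adjusted p = 0.00348). *FN1*, *SNAI2*, *COL5A1* and *COL5A2* kept their calls whichever day was left out. *COL3A1*, a fibrillar collagen, stood at 0.92, 0.3 and 0.46 TPM and 2.84, 2534 and 1237 TPM and had the largest fitted difference of the list (7.22), but did not pass (adjusted p = 0.0776). *COL1A1* stood at 59.6, 40.8 and 19.2 TPM and 72.6, 2011 and 2279 TPM and did not pass either (adjusted p = 0.0734). Both are genes in which days 24 and 28 were far above day 20. The number of collagen and basement membrane genes called was 3, 2, 5, 17, 2 and 6 with each day left out in the same order.

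Of 10 epithelial genes tested, *CDH1*, E-cadherin, was the 1 that fell (2.97% of all tested genes). It stood at 151, 166 and 168 TPM and 96.4, 45.7 and 63.4 TPM (−1.29 ± 0.28 (SE), adjusted p = 0.034), which is above the 64.5 TPM of the +DOX library on day 20 and below it on days 24 and 28. The call was lost when any day other than day 20 was left out. *EPCAM* stood at 246, 237 and 221 TPM and 268, 156 and 501 TPM and *CLDN6* at 779, 583 and 588 TPM and 432, 178 and 641 TPM, and in both genes the arms overlapped.

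Among the primitive streak genes, *T*, *MIXL1* and *EOMES* had their highest levels on days 16 and 20, on both sides of the division of the arms. *T* (Brachyury), the T-box factor of the streak, stood at 0 TPM with DOX, at 0.68, 17.5 and 125 TPM on days 8, 12 and 16 and at 186, 0.74 and 13.1 TPM on days 20, 24 and 28. *MIXL1* stood at 0.16, 33.9 and 303 TPM and 164, 3.08 and 5.33 TPM, and *EOMES* at 0.15, 14.5 and 115 TPM and 96.6, 16 and 43.4 TPM. In these 3 genes day 16 was the highest early day and day 24 the lowest late day, the arms overlapped, and the differences of 0.08, −0.51 and 1.72 did not pass. *FOXH1*, a partner of SMADs in NODAL signalling, took another course, at 97.9, 103 and 136 TPM and 75.7, 2.77 and 2.61 TPM, and did not pass (adjusted p = 0.0844). *TBX6*, a T-box factor of paraxial mesoderm, stood at 7.57, 7.49 and 4.44 TPM and 63.9, 1.53 and 1.17 TPM, with day 20 alone high. Without day 20 both were called lower, with log2 differences of −4.93 (adjusted p = 4.55e-05) for *FOXH1* and −1.65 (adjusted p = 0.0137) for *TBX6*. *MESP1*, a mesoderm factor acting downstream, passed 1 TPM on day 20 alone, at 46.1, 0 and 0.15 TPM on the late days, and was not tested. Of 9 streak genes tested, *EVX1*, a homeobox factor of the posterior streak, was the 1 that rose (4.98% of all tested genes), and none fell. It stood at 0.21, 0.24 and 2.46 TPM and 62.5, 31.2 and 21.4 TPM (4.37 ± 0.54 (SE), adjusted p = 0.0066), with its highest value on day 20, and kept its call whichever day was left out.

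Of 12 endoderm transcription factors tested, 8 rose (4.98% of all tested genes), among them *SOX17*, *GATA4*, *GATA6*, *FOXA1*, *HNF4A*, *PRDM1* and *SOX7*. *SOX17*, which specifies definitive endoderm, stood at 0.68, 1.1 and 11.6 TPM and 126, 83.3 and 95.7 TPM (4.84 ± 0.71 (SE), adjusted p = 0.0119). *GATA6* stood at 0.08, 0.64 and 4.78 TPM and 66.2, 27.3 and 62.5 TPM (4.51 ± 0.65 (SE), adjusted p = 0.0111). In both genes day 16 was already above days 8 and 12, and both calls were lost without day 8 or day 12. *HNF4A*, a regulator of liver and gut genes, stood at 0, 0 and 0.2 TPM and 5.29, 6.14 and 44.6 TPM (3.58 ± 0.73 (SE), adjusted p = 0.0305). *FOXA2* stood at 0.27, 5.2 and 16.9 TPM and 42.5, 31.6 and 89.7 TPM and did not pass (adjusted p = 0.0629). The number called was 0, 0, 6, 10, 3 and 4 with day 8, 12, 16, 20, 24 or 28 left out.

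Of 11 secreted proteins of liver and yolk sac tested, 3 rose (4.98% of all tested genes), which were *APOA1*, *APOA2* and *APOB*. *TTR*, transthyretin, was listed at 0 on every early day and stood at 1.67, 30.6 and 324 TPM on the late days, without passing (adjusted p = 0.0781). *AFP* stood at 2.04, 0.92 and 0.78 TPM and 2.36, 1.03 and 7.94 TPM, and *ALB* and the 3 fibrinogen chain genes were too low to be tested. *APOE* was high throughout, at 1374, 853 and 632 TPM and 896, 911 and 1248 TPM. With each day left out in the order above, 2, 2, 2, 8, 2 and 2 of these genes were called.

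Cardiac and lateral plate mesoderm genes rose in 11 of 15 tested (4.98% of all tested genes). *HAND1*, a basic helix-loop-helix factor of extra-embryonic and heart mesoderm, stood at 0.37, 0.41 and 1.07 TPM and 469.6, 122 and 11.1 TPM (5.80 ± 1.15 (SE), adjusted p = 0.0283), so that its level was highest on day 20 and declined on each later day. *MYL7*, the atrial myosin light chain, stood at 5.34, 1.7 and 1.88 TPM and 81.7, 76.5 and 455 TPM (5.29 ± 0.70 (SE), adjusted p = 0.00823) and was highest on day 28. *TBX3* stood at 3.18, 5.7 and 6.66 TPM and 53.2, 50.8 and 56.9 TPM (3.19 ± 0.28 (SE), adjusted p = 0.00232), and *ISL1* at 0.13, 0.38 and 0.64 TPM and 14.3, 31.2 and 30.7 TPM (4.19 ± 0.39 (SE), adjusted p = 0.00266), with late values close to each other. *TBX3* and *ISL1* kept their calls whichever day was left out, whereas *HAND1* lost its call without day 8, 12, 16 or 24 and *MYL7* without day 12. *TBX5* went the other way, at 0 TPM with DOX, 10.7, 36.1 and 11.8 TPM on the early days and 3.66, 4.51 and 4.03 TPM on the late days, and did not pass (adjusted p = 0.0512). *MYH6*, a heart muscle myosin, was at or below 0.59 TPM in every library of the time course. The number called was 3, 3, 7, 12, 7 and 9 with each day left out.

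Smooth muscle contractile genes rose in 4 of 11 tested (4.98% of all tested genes). *TAGLN*, transgelin, stood at 320.1 TPM with DOX, 114, 120.3 and 95.5 TPM on the early days and 395, 1801 and 3056 TPM on the late days (3.56 ± 0.66 (SE), adjusted p = 0.0241), so that the early days lay below the +DOX library and days 24 and 28 far above it. *CALD1*, caldesmon, stood at 68, 127 and 143 TPM and 219.6, 689.7 and 931 TPM (2.27 ± 0.54 (SE), adjusted p = 0.0462). *CNN1* (calponin) and *MYL9* also rose. Log2 differences in the list ran from −1.22 to 3.84. Without overlap between the arms, 6 of the 11 were higher late and 1 was lower (19.9% and 15.9% of all tested genes). Without day 20, *MYH11* had a log2 difference of −1.25 and *DES* of −0.59, and neither was called. *ACTA2* stood at 9.92, 20.4 and 21.4 TPM and 24.2, 899 and 678 TPM and did not pass (adjusted p = 0.092). The 4 calls were each lost when any day other than day 20 was left out, and 7 genes were called without day 20. 

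Endothelial and blood-forming genes appeared mostly on days 24 and 28, and 3 of 16 rose (4.98% of all tested genes). *CD34*, a surface protein of endothelial and blood progenitors, stood at 1.29, 0.54 and 0.56 TPM and 6.66, 172 and 139.6 TPM (5.02 ± 1.09 (SE), adjusted p = 0.0356), and lost its call when any day other than day 20 was left out. *GATA2* stood at 1.91, 2.98 and 1.17 TPM and 20.7, 64.5 and 15.1 TPM (3.28 ± 0.54 (SE), adjusted p = 0.0166), and lost its call without day 8, 12 or 16. *LMO2*, a cofactor of blood-forming factors, stood at 4.34, 3.4 and 2.89 TPM and 23.7, 56.7 and 29.7 TPM (2.97 ± 0.36 (SE), adjusted p = 0.00609) and kept its call throughout. The endothelial junction genes *PECAM1* and *CDH5* did not pass. *PECAM1* stood at 0, 0.48 and 0 TPM and 1.4, 32.2 and 50.4 TPM, and *CDH5* at 0.33, 0.83 and 0.16 TPM and 1.36, 36.4 and 88.6 TPM, with day 20 close to the early level. The number called was 1, 1, 1, 13, 2 and 2 with day 8, 12, 16, 20, 24 or 28 left out.

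Trophoblast and amnion genes rose in 5 of 12 tested (4.98% of all tested genes), which were *CDX2*, *GATA3*, *TFAP2A*, *KRT18* and *PGF*. *GATA3*, a GATA factor of trophoblast and amnion, stood at 0.22 TPM with DOX, at 1.37, 1.47 and 2.72 TPM on the early days and at 61.4, 50.9 and 40.0 TPM on the late days (4.19 ± 0.30 (SE), adjusted p = 0.00142), and its late libraries lay close together. *CDX2*, a caudal homeobox factor of trophectoderm and hindgut, stood at 0, 0.9 and 0.76 TPM and 34.2, 15.3 and 6.51 TPM (3.44 ± 0.58 (SE), adjusted p = 0.0179), with its highest value on day 20. *GATA3* kept its call whichever day was left out, and *CDX2* lost it without day 8, 12, 16 or 24. *GABRP*, a GABA receptor subunit found in amnion, stood at 154, 329 and 325 TPM and 106, 9.58 and 26.9 TPM and did not pass (log2 difference −3.02, adjusted p = 0.0529), but was called lower without day 20 (−3.90, adjusted p = 0.00141). *TFAP2C*, *KRT7* and *VTCN1* were tested and not called, with log2 differences of −1.11, −0.07 and 0.91 without day 20. Some defining genes of placental trophoblast were at or near 0, apart from *CGA* on day 24. *ELF5* and *GCM1* were at or below 0.63 TPM in every library of the time course, *CGB5* was listed at 0 on every late day, and *CGA* stood at 0.35, 6.07 and 0.72 TPM on the late days. These 4 genes were too low to be tested. The number of the 12 called was 3, 3, 3, 7, 3 and 4 with day 8, 12, 16, 20, 24 or 28 left out.

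Of 15 neural plate and forebrain genes tested, 1 rose (4.98% of all tested genes) and 6 were lower late without overlap between the arms (15.9% of all tested genes) but did not pass, among them *SOX3*, a SOXB1 factor of neural progenitors, at 29.1, 22.7 and 3.63 TPM and 2.8, 0.77 and 0.82 TPM. The gene that rose was *DLX5*, a distal-less homeobox factor, from 0.58, 0.45 and 0.47 TPM to 11.8, 26.1 and 25.3 TPM (3.80 ± 0.38 (SE), adjusted p = 0.00341), and it kept its call whichever day was left out. *DLX5* is also expressed in neural crest and surface ectoderm. *PAX6* stood at 5.23, 1.72 and 1.45 TPM and 3.27, 2.08 and 32.8 TPM, with day 28 alone high, and *SOX1* at 9.04, 2.13 and 0.64 TPM and 0, 0 and 0.36 TPM. *OTX2* stood at 15 TPM with DOX, at 137, 31.1 and 41.1 TPM on the early days and at 47.5, 24.2 and 122 TPM on the late days, so its arms overlapped. The median log2 difference of the list was −0.25.

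The study asked which signalling pathways respond to loss of PRC2 in these cells. It reported that *BMP2*, *BMP4*, *BMP7*, *GDF6* and *ID2* were rising by day 8. It also reported that BMP inhibitors blocked the differentiation, while an inhibitor of TGF-beta/NODAL signalling had no effect. In the TGF-beta family, BMP and TGF-beta ligands bind paired receptors that activate SMAD factors, and secreted antagonists or inhibitory SMADs damp the signal. Of 47 genes tested, 14 rose (4.98% of all tested genes), and the median log2 difference was 1.57, against 0.06 over all tested genes. By role these were 4 of 13 ligands, 2 of 16 receptors and SMADs, 6 of 11 antagonists and 2 of 7 target genes. The number of the 47 called was 7, 7, 9, 27, 7 and 9 with day 8, 12, 16, 20, 24 or 28 left out. Summed ligand TPM was 25.8 in the single +DOX library, 66.3, 82.8 and 107.4 on the early days and 568.4, 1017.8 and 815.2 on the late days. Summed target TPM was 455.1, then 853.7, 562.7 and 702.7 early and 1664.5, 1185.6 and 563.9 late. The late versus early comparison does not measure the change from +DOX to day 8.

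Among the ligands, *BMP4* stood at 7.33, 10.5 and 24.7 TPM and 329, 368 and 152 TPM (4.30 ± 0.48 (SE), adjusted p = 0.00514), and *BMP2* at 5.43, 1.67 and 3.3 TPM and 55.7, 48.9 and 80.0 TPM (3.87 ± 0.37 (SE), adjusted p = 0.00315). *TGFB1* climbed through the early days, at 6.42, 18.1 and 37.5 TPM, and stood at 141, 421 and 286 TPM on the late days (3.88 ± 0.62 (SE), adjusted p = 0.016). *BMP5* also rose (2.96), and *BMP7* stood at 36.8, 46.7 and 37.6 TPM and 23.2, 35.3 and 73.3 TPM, with arms that overlapped. Among the receptors and SMADs, *ACVR1*, a type I receptor for BMP ligands, stood at 11.9, 14.9 and 11.6 TPM and 38.5, 42 and 51.7 TPM (1.71 ± 0.23 (SE), adjusted p = 0.00821), and *SMAD9*, a BMP-activated SMAD, rose from low levels (2.10). *BMPR1A* stood at 19.9, 32.2 and 35 TPM and 19.9, 12 and 16.3 TPM without passing.

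The antagonists included the pathway gene with the lowest adjusted p. *BAMBI*, a pseudoreceptor that blocks the signal, stood at 16.1, 32.3 and 35.9 TPM and 472, 808 and 540.0 TPM (4.42 ± 0.34 (SE), adjusted p = 0.00156). *NOG*, *GREM1*, *SMAD6* and *SMAD7* were among the others that rose, with *NOG*, noggin, at 1.36, 0.5 and 0.42 TPM and 6.08, 30.0 and 59.1 TPM. *CER1*, a secreted inhibitor of NODAL and BMP, stood at 0.54, 28.6 and 442 TPM and 358, 4.98 and 248 TPM, with a peak on days 16 and 20 and a second high value on day 28. Among the targets, *MSX1* stood at 1.49, 1.94 and 0.54 TPM and 96.4, 61.5 and 23.1 TPM (4.56 ± 0.53 (SE), adjusted p = 0.00514) and *MSX2* at 7.38, 8.57 and 15.6 TPM and 70.5, 59.5 and 60.7 TPM (2.55 ± 0.30 (SE), adjusted p = 0.00514). The direct BMP targets *ID1* to *ID4* did not pass. Without day 20 their log2 differences were −0.294, −0.926, 0.835 and 0.024, and none was called. *ID1* stood at 319, 145 and 228 TPM and 464, 275 and 116 TPM and *ID3* at 107, 191 and 172 TPM and 551, 466 and 159 TPM, both highest on day 20. *BMP2*, *BMP4*, *BMP5*, *ACVR1*, *BAMBI*, *MSX1* and *MSX2* kept their calls whichever day was left out, and the other 7 lost theirs without day 8.

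WNT pathway genes, which act in streak and mesoderm patterning, rose in 8 of 21 tested (4.98% of all tested genes). *WNT5A*, a ligand of the non-canonical branch, stood at 3.98, 2.68 and 1.78 TPM and 101, 20.7 and 44.9 TPM (3.65 ± 0.55 (SE), adjusted p = 0.0124), and *WNT2* at 0.11, 0.08 and 0 TPM and 4.64, 10.9 and 53.8 TPM (3.86 ± 0.76 (SE), adjusted p = 0.0278). *WNT3*, the ligand of the streak, was highest on days 16 and 20, at 37.5 and 34.9 TPM, and stood at 1.04 TPM on day 8 and 6.31 TPM on day 28. *LEF1*, a nuclear effector, stood at 5.37, 7.31 and 13.5 TPM and 41.1, 70.9 and 47.7 TPM (2.53 ± 0.36 (SE), adjusted p = 0.0103), while *AXIN2*, a feedback target, stood at 21.9, 21.5 and 34.8 TPM and 17, 16 and 21.8 TPM. *SFRP2*, a secreted WNT modulator, stood at 255, 515 and 350.2 TPM and 139, 10.6 and 5.98 TPM and did not pass (adjusted p = 0.0516). *DKK1*, *DKK2* and *DKK3* were not analysed here. All 8 calls were lost without day 8 and again without day 12, and the number of WNT genes called was 0, 0, 3, 11, 2 and 6 with each day left out.

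Of 11 PRC2 subunit genes tested, *JARID2*, an accessory subunit that helps recruit the complex, was the 1 that fell (2.97% of all tested genes). It stood at 88.8, 117 and 59.7 TPM and 33.6, 22.2 and 32.6 TPM (−1.52 ± 0.30 (SE), adjusted p = 0.0265), and lost its call without day 8, 12, 24 or 28. *EZH2* stood at 48.9, 42.7 and 60.9 TPM and 58.5, 33.9 and 33.2 TPM, and *SUZ12* at 26.9, 22.4 and 24.6 TPM and 23.6, 19.3 and 17.9 TPM, without passing. 

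Genes of replication and mitosis had log2 differences below 0 in all 18 tested, from −1.55 to −0.49, and 2 fell (2.97% of all tested genes). *MCM2*, a subunit of the replicative helicase, stood at 78.5, 76.4 and 80.0 TPM and 44.6, 25.7 and 19.7 TPM (−1.44 ± 0.30 (SE), adjusted p = 0.031). *PCNA*, the sliding clamp, stood at 334, 271 and 384 TPM and 195, 104 and 124 TPM (−1.25 ± 0.27 (SE), adjusted p = 0.0348). Both calls were lost when any day other than day 20 was left out, and without day 20 as many as 15 of the 18 were called lower. *MKI67* stood at 23.9, 34.1 and 50.6 TPM and 45.5, 18.3 and 7.52 TPM, so that day 20 lay within the early range and day 28 far below it.

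None of 12 CDK inhibitor and G1 cyclin genes was called by limma, while 5 were higher at an unadjusted p under 0.05. That threshold was met by 5123 of all 17099 tested genes, counting both directions. *CDKN2A*, which encodes the tumour suppressors p16 and ARF and is a classical PRC2 target, stood at 1.1 TPM with DOX, at 22.3, 31.1 and 19.2 TPM on the early days and at 46.4, 310.1 and 518 TPM on the late days (log2 difference 2.99 ± 0.79 (SE), adjusted p = 0.0587). *CDKN2B*, its neighbour, stood at 0.4, 0.35 and 1.28 TPM and 0.98, 40.0 and 362 TPM (log2 difference 4.25 ± 1.61 (SE), adjusted p = 0.13). *CDKN2A* was above its +DOX level on every day, while *CDKN2B*, listed at 0 TPM with DOX, stayed below 2 TPM up to day 20. Without day 20, 6 of the 12 were called higher.

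MHC class I genes moved in both directions. *HLA-B*, a classical antigen-presenting chain, stood at 102, 139.7 and 115 TPM and 340.3, 277 and 674 TPM (1.75 ± 0.34 (SE), adjusted p = 0.0252). *HLA-F*, a non-classical chain, stood at 19.8, 23.4 and 7.14 TPM and 4.58, 3.55 and 2.41 TPM (−1.86 ± 0.46 (SE), adjusted p = 0.0485), and *PSMB8*, an immunoproteasome subunit, also fell (−1.61). The HLA genes are close paralogs, so the division of reads among them is uncertain, and *HLA-B* lost its call without day 8, 12 or 16 and *HLA-F* without day 8, 12, 24 or 28. Of 7 genes used to mark naive pluripotency that were tested, *KLF2* and *TBX3* rose (4.98% of all tested genes). *KLF2* stood at 0.66, 0.47 and 1.58 TPM and 42, 21.5 and 20.3 TPM (3.89 ± 0.39 (SE), adjusted p = 0.00353) and kept its call throughout. *KLF2* is also expressed in endothelium and *TBX3* in mesoderm, and *KLF17*, *DPPA5* and *DNMT3L*, which are more restricted to the naive state, were too low to be tested.

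**Figure D4:**
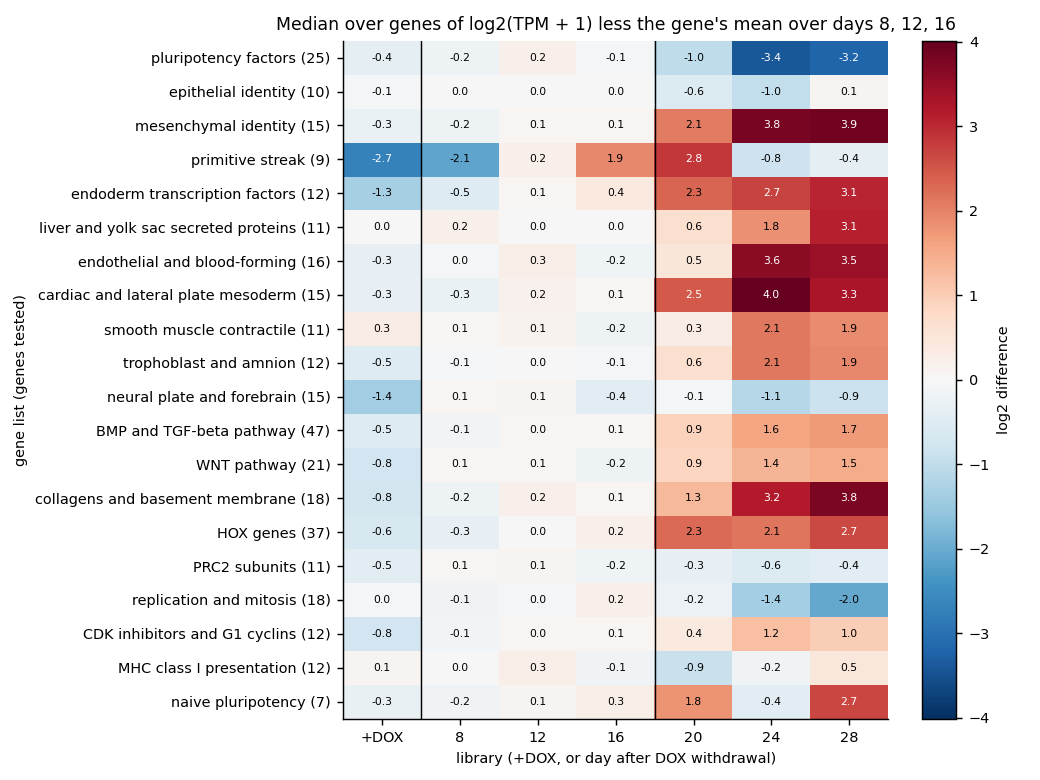
Median over the genes of each list of log2(TPM + 1) less the gene's own mean over days 8, 12 and 16, by library, with the number of genes tested in parentheses. Black lines divide +DOX, early and late days. Mesenchymal, endoderm and *HOX* genes were at least 2 log2 units above their early level on day 20, endothelial genes reached that level on day 24, and primitive streak genes stood 1.94 units above their early mean on day 16 and 2.84 on day 20.

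The constitutive knockout was used to see whether late genes also differed between *EED*-/- H1 and WT H1, which share no library with the time course. In that comparison 5273 of 16914 genes were higher in *EED*-/- H1 (31.2%) and 2304 lower (13.6%). Among the genes called higher late, 839 could be tested there and 770 (91.8%) were higher in *EED*-/- H1, which is 16.1% of the 4797 higher genes among the 16028 tested in both comparisons. Among the genes called lower late, 382 of 495 (77.2%) were lower in *EED*-/- H1, which is 17.2% of 2227. The corresponding shares of all 16028 genes were 29.9% higher and 13.9% lower. The 5 genes that were lower late and higher in *EED*-/- H1 stood against that direction. The *EED*-/- H1 cells are themselves differentiated, as *POU5F1* at 5.27 and 3.62 TPM against 2531 and 2428 TPM in WT H1 shows.

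**Figure D5:**
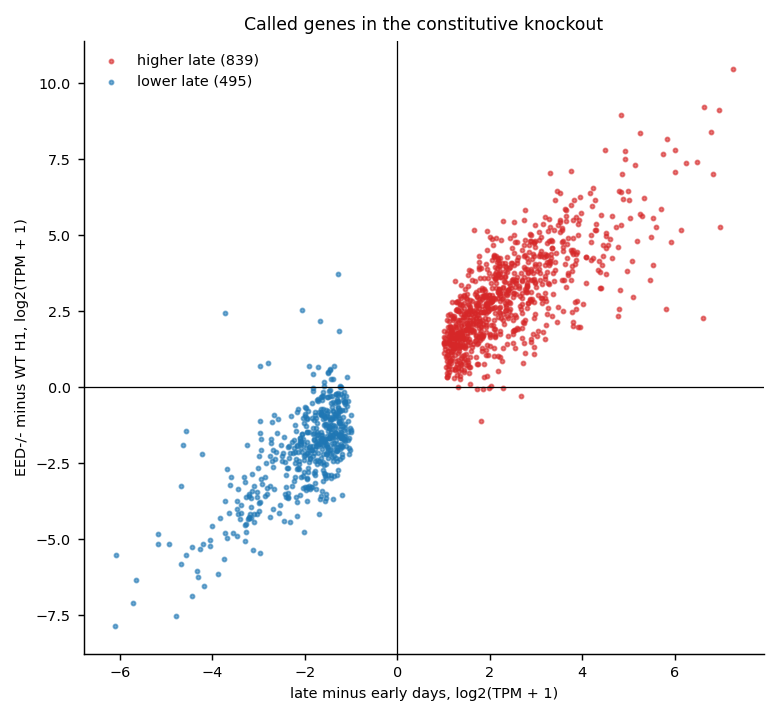
Log2 difference between *EED*-/- H1 and WT H1 (vertical axis) against the late minus early difference (horizontal axis), for 839 genes called higher late (red) and 495 called lower late (blue) that were tested in both comparisons. The axes have different ranges and no diagonal is drawn. Most red points lie above 0 on the vertical axis and most blue points below it.

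The difference between both contrasts, late minus early less *EED*-/- minus WT, was tested directly in 18384 genes. It was above 0 for 5 genes (0.0272%) and below 0 for 30 (0.163%), and none of the genes named above by the selection rule was among them. For *POU5F1*, *FN1*, *HOXB6* and *GATA3* the difference between the time course and the constitutive knockout thus did not pass. Of these genes, *POU5F1* was not called in the time course itself. With 3 libraries an arm in one contrast and 2 in the other, a p that misses the threshold does not show that the effects were equal.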

How the data were processed

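Total RNA was made into TruSeq RNA libraries, which do not mark strand. Per the labels and the methods, the authors used RSEM with Bowtie2 against human mRNA sequences of GRCh38, and what they deposited is the TPM of 33382 genes for each of 19 samples. Differential expression on raw counts is described by the authors, and no counts were used here. The deposited TPM sum to the same total in each library and keep no depth.

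Groups and days were taken from the labels. Values were taken as log2(TPM + 1), for genes that reached 1 TPM in 2 or more of the 6 libraries. Late and early days were compared with limma 3.58.1 in R 4.3.3 (lmFit, eBayes with trend and robust options), Benjamini-Hochberg adjustment over all genes tested, and a threshold of 5% and 2-fold. *EED*-/- H1 and WT H1 (2 libraries each), the difference between both contrasts and day as a number were fitted in the same way. The p-values set each difference against the spread between these libraries. The script was tested on simulated data in which libraries varied independently, with no trend across days. That setting differs from the ordered days here, so it does not check the calls. The genes named were OCT4 (*POU5F1*), *NANOG*, *SOX2* and *EED*, the 8 largest rises and 8 largest falls among called genes, and up to 2 genes of each of 20 lists with the largest differences among its called members, or among all its members where none was called. Other members were given to show the course of a list and were chosen after their values were seen. The comparison and the lists were chosen with earlier results of these data known. Lists were described by counts and medians, without a test of the list. Promoters were taken from RefSeq. Alternatives were the pseudocount (0.1), the filter, the thresholds, the form of eBayes, scaling by median ratios, each library left out, day as a number and the +DOX library as part of the reference. Tables and figures were made in Python 3.11.15 (pandas 2.3.3, numpy 2.4.6, matplotlib 3.10.9). Single-gene coordinates are from the GENCODE annotation on GRCh38. The values of some genes are not reported here.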

Additional observations from a re-analysis of the deposited data

Results flagged for a closer look

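The late minus early difference differed from the *EED*-/- minus WT difference, by a limma test of the difference itself, upward in 5 genes and downward in 30. All 30 downward genes were higher in *EED*-/- H1 than in WT H1. In 15 of them every early day was already at least 1 log2 unit above the +DOX library, and in 23 the late mean lay within 1 unit of the early mean. The genes given here were chosen after their values were seen.

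*BMI1*, a subunit of PRC1, stood at 3.14 TPM with DOX, at 36.9, 43.1 and 40.6 TPM on days 8, 12 and 16, and at 43, 39.4 and 43.7 TPM on days 20, 24 and 28, against 2.12 and 2.99 TPM in WT H1 and 62.2 and 61.2 TPM in *EED*-/- H1. Its difference of differences was −4.09 ± 0.27 (SE), adjusted p = 0.000753. *COMMD3*, the gene next to *BMI1* on chromosome 10, stood at 3.88 TPM with DOX, 16.4, 16.6 and 15.4 TPM and 19.3, 35.7 and 34.9 TPM, with −3.92 ± 0.42 (SE), adjusted p = 0.0164. A *COMMD3-BMI1* readthrough transcript is annotated in this region, so reads may be shared between both genes. *ZIC1*, a zinc-finger factor of neural and mesodermal tissue, stood at 1.32 TPM with DOX, 74.1, 50.1 and 34 TPM and 47.1, 31.5 and 20.0 TPM, with −4.71 ± 0.59 (SE), adjusted p = 0.0274. *BARX1*, a homeobox gene, stood at 3.17 TPM with DOX, 41, 73.5 and 52.1 TPM and 37.1, 13.9 and 22.3 TPM, with −5.00 ± 0.60 (SE), adjusted p = 0.0253. *SLC16A3*, a lactate transporter, stood at 2.45 TPM with DOX, 39.7, 58.8 and 21.6 TPM and 51.5, 106 and 40.5 TPM, with −4.33 ± 0.67 (SE), adjusted p = 0.0488. In these 5 genes every early day was above the +DOX library.

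*HERC3* stood at 40.0 TPM with DOX, 52.8, 42.1 and 62.7 TPM and 57.6, 61.5 and 57.2 TPM, but at 0.92 and 1.38 TPM in WT H1 and 40.7 and 61.3 TPM in *EED*-/- H1, so that the +DOX library itself lay near the knockout level (−4.40 ± 0.35 (SE), adjusted p = 0.00201). *BTG2*, an antiproliferative gene, was called higher late (1.65) and had a larger difference in the knockout (5.18 ± 0.23 (SE)), with −3.54 ± 0.47 (SE), adjusted p = 0.0274. *IFITM2*, an interferon-induced membrane protein, was among the 5 upward genes (1.99 ± 0.30 (SE), adjusted p = 0.0488). It stood at 371, 427 and 385 TPM and 500.2, 610.4 and 420.1 TPM, against 492 and 415 TPM in WT H1 and 123 and 171 TPM in *EED*-/- H1, and shares sequence with its paralogs.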

How the results depend on the processing

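No paired analysis was possible because the days, WT H1 and *EED*-/- H1 carry no shared replicate numbers in the labels. Among called genes of the late versus early comparison no direction changed under any alternative tried. The numbers of genes called higher and lower, 851 and 507, moved to 164 and 39 at an adjusted p of at most 1% with a fold of at least 3, to 1632 and 876 with the +DOX library added to the early days, and to 2073 and 1233 with day as a number, and the lower count moved to 293 without a filter on low values. With 1 library left out at a time, 143 to 2560 genes were called higher and 25 to 1529 lower. Those fits hold 5 libraries, and the highest counts came without day 20. A pseudocount of 0.1, the stricter filter, another form of eBayes, no fold cutoff and scaling by median ratios kept both counts within 1.5 times. For *EED*-/- H1 against WT H1, leaving out a library gave 3447 to 4236 genes higher, against 5273. The difference between both contrasts was above 0 in 5 genes, in 9 with a pseudocount of 0.1 and in 8 without a filter. Why these counts moved was not tested.

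Of the 48 named genes that were called, 23 were called in every fit with 1 day left out. *EED*, which was not called, had a log2 difference of 0.31, which turned to −0.35 with the +DOX library in the reference, where its level was highest. With a pseudocount of 0.1 the medians of 6 lists moved by more than their spread within arms, all upward. TPM keeps no depth, so no interval or detection limit is given. The SE of a late versus early difference rests on the spread between days, which contains the change with time. For *EED*-/- H1 against WT H1 it rests on 2 libraries each. The TPM of a single library carries no error.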
